A study of Caenorhabditis elegans with 54 samples.

Results

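The genes described here encode the proteins of the mitochondrial ribosome of Caenorhabditis elegans. They were chosen by name, as all protein-coding genes whose WormBase symbol begins with mrpl- (large subunit) or mrps- (small subunit). These are 70 genes, 41 named for the large and 29 for the small subunit, of 20728 genes listed in the tables. The naming rule used no measured value, but the members were chosen with earlier results of these data known. RNA had been sequenced from day 1 adults kept at 20 °C as 54 libraries. They form 9 experiments, each with 3 fraction libraries (RNA bound to ribosomes) and 3 total RNA libraries of the same strain.

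In 6 experiments ribosomes were immunoprecipitated (IP) by a FLAG tag on the cytosolic ribosomal protein RPL-22, and the promoter in front of the tagged copy set which cells it was made in. The muscle strain (WBM1339, wbmIs118) used the myo-3 promoter, the intestine strain (WBM1470, wbmIs131) the nep-17 promoter and the soma strain (WBM1364, wbmIs119) the eft-3 promoter. Neurons were profiled with the rab-3 promoter in 2 strains, here called neurons A (MSD473, wbmls99) and neurons B (WBM1471, wbmIs133). The ubiquitous strain (MSD470, rpl-22(wbm58)) carried the tag on its own rpl-22 gene. The other 3 experiments used sucrose gradients in place of the tag. They took polysomes of the ubiquitous strain, a pool of its 60S, 80S and polysome fractions, and polysomes of wild type (Bristol N2), which carries no tag. The total RNA came from whole animals, gonad and embryos included, whereas a tissue IP draws on the cells in which its promoter is active. Fewer cells of a type and less RNA per cell cannot be told apart in such bulk samples. No label ties the replicates to separate cultures, so p-values cover only the spread among the libraries at hand, which may be technical.

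Mitochondria keep a ribosome of their own, which translates the few messenger RNAs transcribed from mitochondrial DNA for subunits of the oxidative phosphorylation (OXPHOS) complexes. Its proteins are encoded in the nucleus, made on cytosolic ribosomes and imported, so a tag on RPL-22 captures the cytosolic ribosomes that make them and not the mitochondrial ribosome itself. In worms, RNA interference against mrps-5 and several other genes of this family is known to extend lifespan and to turn on the mitochondrial unfolded protein response.

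All 70 genes were listed in all 9 tables, and all 70 had a mean of at least 10 normalized counts in each table, the minimum for testing. By the number in the symbol, 41 of the 70 were counted as having a counterpart in the bacterial ribosome and 29 as having none. This was not checked by sequence. Chromosome III held 22 of them (31.4%, against 13.2% of all protein-coding genes) and the X chromosome held none, where 13.7% of protein-coding genes lie. A protein-coding neighbour on the same strand within 500 bases was annotated for 67.1% of the members, against 35.5% of all protein-coding genes. Their median coding length was 606 bases, against 1089 bases for the 14026 protein-coding genes tested in the wild-type polysome experiment. In 20 members an exon overlaps an exon of another protein-coding gene, on the same strand in 7 and on the other strand in 13, and their values are uncertain because the sources used here do not say whether strand was used in counting. Among the genes named below these are mrpl-1, mrpl-12, mrpl-24, mrpl-28, mrpl-35, mrpl-42, mrpl-44, mrpl-53, mrps-11, mrps-15 and mrps-35.

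In total RNA the place of a member among the 70, taken as normalized count per kilobase of transcript, was steady at the low end and less so above it. mrps-31 ranked 69 or 70 in all 9 experiments, and mrpl-46 between 66 and 69. mrpl-36, the counterpart of a small zinc-binding bacterial protein, ranked between 1 and 12 with a median of 1, whereas mrpl-11 ranged from 1 to 32 and mrps-5 from 10 to 49. In wild-type total RNA the level per kilobase was 2694 for mrpl-36, 2136 for mrps-5 and 508 for mrps-31, the lowest of the 70, and the highest was 3241 for mrpl-11.

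The summed normalized counts of a library ran from 16.5 to 85.8 (median 34.8) in units of 1e6. In the neurons A IP replicate 3, 7896 of 17946 listed genes stood at 0, among them 9 members (mrps-35, mrps-2, mrps-21, mrpl-50, mrpl-28, mrpl-44, mrps-17, mrpl-45 and mrpl-21), and in the intestine IP replicate 2, 6112 of 17751 did. In no other library did a member stand at 0. Markers of the targeted tissue were higher in its own IP, with a log2 ratio of summed levels of 2.34 for 9 intestine markers, 4.25 for 7 body wall muscle markers, and 6.06 (neurons A) and 5.18 (neurons B) for 8 neuronal markers. The summed level of 10 germline and oocyte markers was lower in all 9 fractions, with a log2 ratio between -3.58 (neurons A IP) and -0.67 (pooled fractions). The part of germline RNA in the results below was not tested.

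As a share of all normalized counts of a library, the 70 genes took less of the tissue IPs than of total RNA and more of the polysomes. Such a share amounts to scaling libraries to equal sums, so it also depends on how much the other genes take. In the muscle IP they took 2819, 2992 and 3178 per 1e6, against 4098, 4166 and 5807 in muscle total RNA. In the neurons A IP they took 1220, 1648 and 1864 per 1e6, against 3086, 3271 and 3852 in total RNA. In polysomes of the ubiquitous strain they took 3895, 3897 and 4160 per 1e6, against 3037, 3138 and 3166 in total RNA. The libraries of the 2 kinds did not overlap in the muscle, intestine, soma and both neuron experiments, where the IP was lower, nor in the 3 gradient experiments, where the fraction was higher. In the ubiquitous IP the share was 3617 to 3785 per 1e6, which overlapped the 3646 to 4018 per 1e6 of its total RNA. At equal sums 67.1% of members fell in the muscle IP, against 71.2% of all genes. It was 42.9% against 40.2% in intestine and 11.4% against 13.6% in neurons A, so these 3 shares are near the background. In neurons B 75.7% of members fell, against 39% of all genes, and in the soma IP 41.4%, against 31.3%.

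**Figure D1:**
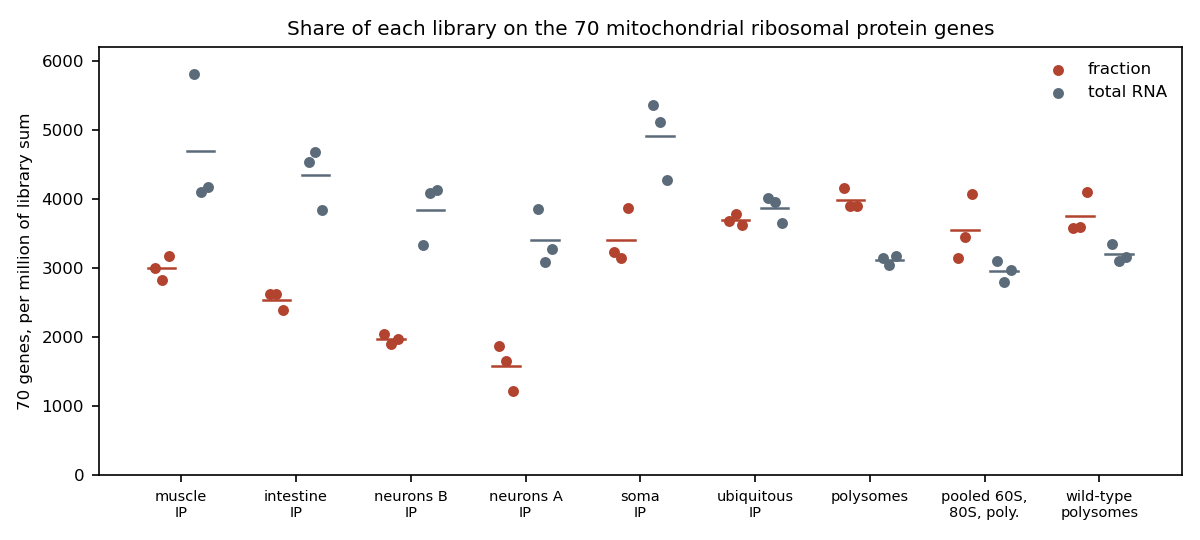
Share of each library's normalized counts that fell on the 70 mitochondrial ribosomal protein genes (counts per 1e6), by experiment; each point is 1 library, red for the ribosome-bound fraction and grey for total RNA, and bars are means of 3. Fraction libraries lie below their total RNA in the 5 tissue and soma IPs and above it in the 3 gradient experiments, and overlap it in the ubiquitous IP. The share amounts to equal-sum scaling, with which 71.2% of all genes fell in the muscle IP and 40.2% in the intestine IP.

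Polysomes answer which members were loaded with several cytosolic ribosomes at once in whole animals. In polysomes of the ubiquitous strain 44 of 70 members rose (62.9%) and none fell in the limma test at an adjusted p under 0.05, while 28.4% of all 14651 genes tested rose and 30.3% fell. Only 1 member was lower at an unadjusted p under 0.05, and the authors' deposited test called 40 higher and 1 lower. The median log2 ratio of polysomes over total RNA was 0.68 for the members and 0.01 for all genes. In 50 members every polysome library stood above every total RNA library, as in 34.1% of all genes, and in 1 below, as in 35.3%. Genes of both names took part, with 25 of 41 mrpl- and 19 of 29 mrps- genes risen.

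The largest rises in polysomes were those of mrps-21, mrpl-35, mrps-12, mrpl-41 and mrpl-12. mrps-12 (chromosome V, 20838080 to 20838768, build WBcel235), whose bacterial counterpart sits at the decoding centre, had normalized counts of 3381, 2139 and 2103 in polysomes, against 806, 1032 and 828 in total RNA (log2 ratio 1.49, SE 0.22, adjusted p = 0.000755). mrpl-12 (chromosome III, 10707761 to 10708521), the counterpart of the bacterial stalk protein that recruits translation factors, had 6506, 4069 and 3885, against 1604, 2317 and 1576 (log2 1.38, SE 0.25, adjusted p = 0.00176). mrpl-41 (chromosome II, 288939 to 290386), a subunit with no bacterial counterpart, had 5063, 3107 and 2788, against 1226, 1547 and 1197 (log2 1.42, SE 0.24, adjusted p = 0.00135). In all 3 genes each polysome library lay above each total RNA library. mrps-5 (chromosome V, 12563487 to 12565801) had 4724, 3953 and 3712 in polysomes, against 3095, 4157 and 3366 in total RNA, and did not pass (log2 0.23, SE 0.19, adjusted p = 0.314).

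Wild-type polysomes asked the same of animals with an untagged ribosome. Here 53 members rose (75.7%) and 1, mrps-31, fell, against 33.6% and 33.9% of all 14705 genes tested. The split with libraries of equal sum was 30 risen (42.9%) and 8 fallen (11.4%), against 20.5% and 43.6% of all genes. The call of mrps-31 (log2 -0.33, adjusted p = 0.0482) was lost in 5 of the 6 fits that left out a library, with no filter on low values and in the authors' deposited test, each with 0 members fallen. It was kept without polysome replicate 3, where 7 members fell. Members had a median log2 ratio of 0.61, and all genes 0.02. mrpl-12 rose most, with 5466, 5919 and 4084 in polysomes against 1555, 1567 and 1800 in total RNA (log2 ratio 1.64, SE 0.14, adjusted p = 1.51e-07). mrps-12 (log2 1.49), mrpl-22 (1.46), mrpl-41 (1.37) and mrpl-35 (1.37) followed. In 55 members all polysome libraries lay above all total RNA libraries, as in 35.8% of all genes, and in 1 they lay below, as in 35.9%. mrps-5 rose by a log2 of 0.38 (SE 0.13, adjusted p = 0.0142), with 4049, 4529 and 3709 in polysomes against 2780, 3254 and 3407 in total RNA, and lost its call when polysome replicate 2 or total RNA replicate 1 was left out (adjusted p up to 0.0795) and with libraries of equal sum, where its log2 was 0.00015.

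Set against each other, the polysome enrichment of the ubiquitous strain and that of wild type did not differ in any member by limma's interaction test over 12 libraries. The differences ran from -0.44 to 0.63 with a median of 0.01, 1 member was higher at an unadjusted p under 0.05 and none lower, and 0% of all 14372 genes tested passed in either direction. A miss of the threshold does not show that they act alike. For mrpl-12 the difference was -0.26 (SE 0.30), for mrps-5 -0.15 (SE 0.22), for mrpl-41 0.05 (SE 0.28) and for mrps-12 0.00 (SE 0.26).

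In the pool of 60S, 80S and polysome fractions 30 members rose (42.9%) and 2 fell, against 20.6% and 23.1% of all 14824 genes tested, and with every library centred on its median the split was 20 and 5 (28.6% and 7.14% of members, 15.9% and 27.1% of all genes). Without total RNA replicate 1 or 2 the calls numbered 21 and 15. In 30 members the pooled-fraction libraries lay above all total RNA libraries, as in 25.9% of all genes, and in 5 below, as in 27.2%. The members' median log2 ratio was 0.32. mrps-12 again stood first, with 1917, 1640 and 2301 in the pooled fractions against 961, 799 and 1003 in total RNA (log2 ratio 1.08, SE 0.16, adjusted p = 0.000136), and mrps-21 (0.98), mrpl-35 (0.92), mrpl-36 (0.83), mrpl-12 (0.82) and mrpl-41 (0.81) rose beside it. mrpl-48 had 834, 812 and 1066, against 1248, 1188 and 1268 in total RNA (log2 ratio -0.46, SE 0.15, adjusted p = 0.0208). mrpl-50 fell by about as much (log2 -0.45, adjusted p = 0.0213). These 2 calls were lost in 5 and 4 of the 6 fits that each left out a library, with adjusted p up to 0.0786 for mrpl-48 and up to 0.0976 for mrpl-50.

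The polysome enrichment was above that of the pooled fractions in 65 of 70 members, with a median difference of 0.40 log2 units against -0.02 over all genes. No single member passed limma's interaction test, 16 were higher at an unadjusted p under 0.05 and none lower, and 0.504% of all 14481 genes passed as higher and 6.01% as lower. Without polysome replicate 3 of the ubiquitous strain 1 member passed.

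The ubiquitous IP captured the same strain's tagged ribosomes by immunoprecipitation. There 21 members fell (30%) and 5 rose, while 20.4% of all 13853 genes tested fell and 16.9% rose. The split was 10 fallen (14.3%) and 5 risen (7.14%) with libraries of equal sum, where 7.45% and 16.1% of all genes did so. It was 14 and 3 without IP replicate 1, and 30 and 10 without total RNA replicate 3. Members had a median log2 ratio of -0.30, and all genes 0.01. In 35 members all IP libraries lay below all total RNA libraries, as in 26.1% of all genes, and in 8 above, as in 24.1%. The 5 that rose were all of the large subunit. In this experiment's total RNA their levels per kilobase were 2078 (mrpl-11), 687 (mrpl-28), 889 (mrpl-38), 1897 (mrpl-40) and 452 (mrpl-1). In the total RNA of the same strain's polysome experiment, normalized separately, these were 3182, 1871, 1518, 2715 and 1182. The part of these total RNA levels in the rises was not tested. mrpl-11 (chromosome III, 8717644 to 8718567), the counterpart of a bacterial protein at the factor-binding site, had 2654, 2875 and 2500 in the IP, against 1470, 1529 and 1290 in total RNA (log2 ratio 0.91, SE 0.14, adjusted p = 0.00084). mrpl-28 followed with 1102, 1175 and 1029 in the IP, against 726, 719 and 593 in total RNA (log2 ratio 0.70, SE 0.14). mrpl-38 rose by 0.59, mrpl-40 by 0.52 and mrpl-1, the counterpart of the protein of the mobile bacterial stalk at the tRNA exit, by 0.50. The calls of mrpl-1 and mrpl-40 were lost in 3 and 5 of the 6 fits that left out a library, with adjusted p up to 0.102 and 0.132.

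Among the members that fell in the ubiquitous IP, mrps-31 (chromosome III, 3627234 to 3630372), a small subunit protein with no bacterial counterpart, had 247, 304 and 255 in the IP, against 845, 829 and 674 in total RNA (log2 ratio -1.54, SE 0.16, adjusted p = 0.000117). mrpl-45, whose human counterpart lies at the exit of the nascent chain beside the inner membrane, had 1200, 1173 and 1062, against 2381, 2760 and 4302 (log2 -1.41, SE 0.21, adjusted p = 0.000668). The IP libraries of both genes lay below all of their total RNA libraries. mrpl-32 (-1.30), whose yeast and mouse counterparts are matured by the m-AAA protease, mrpl-50 (-1.24) and mrpl-17 (-1.16) fell as well. mrps-5 had 2143, 2262 and 2389 in the IP, against 2574, 2885 and 3635, and did not pass (log2 -0.41, SE 0.16, adjusted p = 0.0675), although it passed with the replicate number as a block (adjusted p = 0.0364).

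The IP and the polysomes of this strain differed in most members. The ratio of the ubiquitous IP to its total RNA was lower than the ratio of polysomes to theirs in 49 members (70%) and higher in none, while 22.5% of all 13662 genes tested were lower and 22.5% higher, and with libraries of equal sum the split was 26 lower (37.1%) and 3 higher (4.29%), against 9.05% and 27.3% of all genes. At an unadjusted p under 0.05 limma put 53 members lower and 1 higher. The difference was below 0 in 65 of 70 members, and its median over all genes was -0.02. The largest differences were those of mrpl-49 (-1.91, SE 0.27, adjusted p = 0.00018), mrpl-54 (-1.89), mrpl-21 (-1.87), mrpl-17 (-1.68) and mrps-25 (-1.67). mrpl-41 (-1.60), mrpl-12 (-1.49) and mrps-12 (-1.27) differed as well. For mrps-5 the difference was -0.63 (adjusted p = 0.0468), and it missed the threshold in 9 of 12 fits that left out a library (adjusted p up to 0.116) and with the replicate block (adjusted p = 0.0526). The 2 experiments used separate total RNA, whose levels per kilobase differed in these genes. Total RNA of the IP against that of the polysomes had 1642 against 1035 for mrpl-49, 2895 against 1310 for mrpl-54 and 2161 against 1200 for mrpl-21. It had 4172 against 1791 for mrpl-17 and 5749 against 2034 for mrps-25. mrps-5 went the other way, with 2058 against 2403. The part of total RNA in the differences was not tested.

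In the soma IP most members stood lower than in total RNA. With the tag under the eft-3 promoter 33 members fell (47.1%) and 1 rose, against 32.7% and 25.1% of all 16031 genes tested. Without soma IP replicate 3 the calls numbered 22, and without total RNA replicate 2 they numbered 20. Members had a median log2 ratio of -0.67, and all genes -0.09. In 50 members every IP library lay below every total RNA library, as in 34% of all genes, and in 2 above, as in 31.5%. mrps-31 had 618, 423 and 983 in the soma IP, against 2050, 1707 and 2241 in total RNA (log2 ratio -1.64, SE 0.35, adjusted p = 0.00296). mrps-5 had 1600, 2175 and 1396, against 4294, 4278 and 5770 (log2 -1.48, SE 0.29, adjusted p = 0.00222). The IP libraries of both were below all total RNA libraries. mrpl-45 (-1.61), mrpl-46 (-1.59) and mrps-30 (-1.46) fell alike.

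The single member that rose in the soma IP was mrps-33 (chromosome IV, 8739470 to 8740026), a short protein of the small subunit with no bacterial counterpart. It had 5120, 2894 and 4838 in the soma IP, against 2334, 2379 and 2445 in total RNA (log2 ratio 0.80, SE 0.30, adjusted p = 0.0397). Its call was lost in 4 of the 6 fits that left out a library (adjusted p up to 0.134) and with libraries centred on their median (adjusted p = 0.084). mrps-12, with 3088, 3431 and 3770 in the IP against 3022, 3125 and 2342 in total RNA, overlapped and did not pass (log2 0.28, adjusted p = 0.377).

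Against the ubiquitous IP, the soma IP had a lower ratio in 16 members (22.9%) and a higher one in none, where 29.1% of all 13764 genes tested were lower and 20.2% higher, so the share of members was below the background. At an unadjusted p under 0.05 limma put 18 lower and 3 higher. Without ubiquitous IP replicate 1 or 2 the calls numbered 10 each. The largest differences were those of mrpl-28 (-1.63, SE 0.31, adjusted p = 0.00154), mrpl-38 (-1.59), mrpl-1 (-1.54), mrpl-40 (-1.48) and mrpl-47 (-1.41). The first 4 of these had risen in the ubiquitous IP, and their low levels in its total RNA are given above. mrps-5 differed by -1.08 (SE 0.32, adjusted p = 0.0136).

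In the muscle IP 38 members rose (54.3%) and none fell with the deposited normalization, against 23.1% and 13.1% of all 14681 genes tested, but the calls depended on the scaling. With libraries of equal sum 47 fell and 1 (mrps-33) rose, but 71.2% of all genes fell too, so the 67.1% of members is no result about them. With each library centred on its median 8 rose (11.4%) and 7 fell (10%), against 16.95% and 44.45% of all genes. No member was lower at an unadjusted p under 0.05, and the authors' deposited test called 35 higher and none lower. In 44 members all IP libraries lay above all total RNA libraries, as in 27.3% of all genes, and in none below, as in 22.7%. The members' median log2 ratio was 0.69 and that of all genes -0.14, and equal-sum scaling turned it to -0.70. The members' median lay 0.83 above that of all genes, a distance that rescaling a library cannot move except through the pseudocount. Without muscle IP replicate 2 or 3 the calls numbered 16 and 17, and without total RNA replicate 2 or 3 they numbered 24 and 18.

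mrps-33 rose most in muscle, with 3582, 6885 and 7503 in the IP, against 1631, 1228 and 1122 in total RNA (log2 ratio 2.12, SE 0.29, adjusted p = 0.00014). mrps-12 had 4441, 6282 and 7020, against 2401, 1221 and 1154 (log2 1.95, SE 0.30, adjusted p = 0.000355). Every muscle IP library of these 2 genes exceeded every total RNA library. mrpl-36 (1.67), mrpl-53 (1.48) and mrpl-35 (1.44) rose too, and with libraries of equal sum these 3 and mrps-12 kept a positive ratio but not their call, whereas mrps-33 kept its call (log2 0.73). mrpl-41 (1.33) and mrpl-12 (1.21) rose with the deposited values and turned to -0.06 and -0.19 with equal sums. mrps-5 had 3223, 3545 and 3563 in the IP, against 2774, 3349 and 2960 in total RNA, with overlapping libraries (log2 0.19, SE 0.19, adjusted p = 0.451).

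In the intestine IP 7 members rose (10%) and none fell, while 17.8% of all 13629 genes tested rose and 9.61% fell, and the direction depended on the scaling. With libraries of equal sum 30 fell and none rose, but their 42.9% was near the 40.2% of all genes that fell. With centred libraries 3 fell (4.29%) and none rose, against 19.2% and 15.6% of all genes. No member was lower at an unadjusted p under 0.05. Replicate numbers paired the intestine libraries, and with the replicate block 21 members rose and 1 fell. The authors' deposited test called 21 higher and 2 lower. The shares of all genes called with the block and in the deposited test are not given here, so these counts cannot be set against a background. Without IP replicate 1 or total RNA replicate 1 none was called, without total RNA replicate 2 there were 2, and without total RNA replicate 3 there was 1. In 18 members all IP libraries lay above all total RNA libraries, as in 22.5% of all genes, and in 8 below, as in 26.2%. The members' median was 0.35, against -0.42 for all genes, and it turned to -0.84 with libraries of equal sum and to -0.05 with centred ones.

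The members that rose in the intestine IP included mrps-12, with 2235, 3144 and 1459 in the IP, against 672, 944 and 600 in total RNA (log2 ratio 1.58, SE 0.36, adjusted p = 0.0144). mrps-33 had 1948, 2946 and 1249, against 807, 965 and 620 (SE 0.38, adjusted p = 0.0369). mrps-23 (1.42), mrpl-22 (1.23), mrps-28 (1.14), mrpl-41 (1.12) and mrps-21 (1.04) rose as well, and in all 7 the IP libraries lay above the total RNA libraries. All 7 lost their call without IP replicate 1, without total RNA replicate 1, with libraries of equal sum and with centred libraries. Over the 6 fits that left out a library, the 6 other than mrps-21 lost theirs in 2 to 5, with adjusted p up to 0.164. With equal sums mrpl-41 and mrps-28 turned to -0.07 and -0.05. mrps-5 had 1341, 1195 and 1415 in the IP, against 1544, 1528 and 2301 in total RNA, and the libraries did not overlap, but the test was not passed (log2 -0.42, SE 0.28, adjusted p = 0.286).

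Muscle and intestine differed in few members. The muscle IP ratio was higher than the intestine IP ratio in 3 (4.29%) and lower in none, where 11.5% of all 12958 genes tested were higher and 12.8% lower, and at an unadjusted p under 0.05 limma put 10 higher and none lower. The 3 were mrpl-44 (1.50, SE 0.31, adjusted p = 0.0025), mrps-11 (1.23, SE 0.31, adjusted p = 0.0101) and mrpl-48 (1.09, SE 0.34, adjusted p = 0.0357). mrpl-44 shares exon sequence with mccc-2, an overlapping gene on the same strand. At equal library sums 1 difference was called, and without muscle total RNA replicate 1 there were 7. The call of mrpl-48 was lost in 7 of 12 fits that left out a library (adjusted p up to 0.102).

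Both neuron IPs had medians of the members below 0. In the neurons B IP 34 fell (48.6%) and 1 rose, against 32.6% and 38.7% of all 16572 genes tested. With libraries of equal sum 53 fell (75.7%, against 39% of all genes), and with centred ones 69 did (98.6%, against 51.6%), with 1 risen in both. Members had a median log2 ratio of -0.59, and all genes 0.10. In 35 members all IP libraries lay below all total RNA libraries, as in 34.6% of all genes, and in 1 above, as in 40.5%. Without neurons B IP replicate 2 the calls numbered 21, and without total RNA replicate 2 or 3 they numbered 20 each. mrps-31 had 271, 182 and 135 in the IP, against 666, 864 and 782 in total RNA (log2 ratio -2.02, SE 0.31, adjusted p = 0.000227). mrps-26 had 823, 710 and 643, against 2927, 2524 and 2747 (log2 -1.92, SE 0.21, adjusted p = 2.39e-05). All IP libraries of both lay below all total RNA libraries. mrps-15 (-1.67), mrpl-9 (-1.62) and mrpl-45 (-1.55) fell too. mrps-5 fell by a log2 of 0.71 (adjusted p = 0.0233) and lost its call without IP replicate 2 or total RNA replicate 2 or 3 (adjusted p up to 0.114).

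The exception in neurons B was mrpl-22 (chromosome III, 10615466 to 10617859), the counterpart of a protein that lines the exit tunnel of the bacterial ribosome. It had 4641, 5052 and 6208 in the IP, against 874, 1635 and 1325 in total RNA (log2 ratio 2.09, SE 0.27, adjusted p = 7.49e-05), and all IP libraries stood above all total RNA libraries. The nearest annotated gene before it on its strand, Y39A1A.24, ends 534 bases away and had a log2 ratio of 1.67 in the same experiment (adjusted p = 0.000163), while hpr-9, 3691 bases after it, had -1.68. In neurons A mrpl-22 was also the highest member, with 2142, 2216 and 894 in the IP against 848, 694 and 1240 in total RNA, but the libraries overlapped and it did not pass (log2 0.85, SE 0.55, adjusted p = 0.273). The 9 intestine markers summed to 37494.5 to 53585 per 1e6 in the neurons B IP, against 24288 to 28922 per 1e6 in its total RNA, and 0 of the 9 were absent from all IP libraries. Their part in the mrpl-22 result was not tested.

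In the neurons A IP 5 members fell (7.14%) and none rose, where 12% of all 14483 genes tested fell and 15.3% rose. No member was higher at an unadjusted p under 0.05, 19 were lower, and the authors' deposited test called 28 lower and none higher. Replicate numbers were taken to pair these libraries, although not each library correlated best with its own number, and with the replicate block 23 fell. The shares of all genes called with the block and in the deposited test are not given here, so these counts have no background. Without IP replicate 3, the library with 9 members at 0, the calls numbered 17 fallen and 1 risen. Without IP replicate 1 or 2 there was 1 call, and leaving out any single total RNA library left none. The members' median was -1.26, against -0.80 for all genes, and -0.73 without IP replicate 3. The 5 were mrpl-12, with 453, 508 and 206 in the IP against 2109, 1726 and 2517 in total RNA (log2 ratio -2.53, SE 0.54, adjusted p = 0.0154), mrps-28 (-1.93), mrps-10 (-1.80), mrpl-32 (-1.79) and mrpl-18 (-1.71). In 34 members every IP library lay below every total RNA library, as in 31.7% of all genes, and in none above, as in 19.7%.

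Muscle and neurons B differed in most members. The muscle IP ratio was above the neurons B IP ratio in 54 members (77.1%) and below it in 1, against 32.4% and 23.1% of all 14162 genes tested. The median difference was 1.33 log2 units, against 0.53 over all genes. With libraries of equal sum the split was 7 above (10%, near the 7.67% of all genes) and 1 below (1.43%, against 33.3%), with a median of 0.35. The largest differences were those of mrps-33 (2.40, SE 0.39, adjusted p = 9.38e-05), mrps-26 (2.16), mrpl-44 (2.13), mrpl-12 (1.99) and mrpl-53 (1.96). mrps-12 (1.88) and mrpl-41 (1.43) also differed. mrps-5 differed by 0.90 (adjusted p = 0.0206), turned to -0.09 with libraries of equal sum and lost its call without neurons B IP replicate 2 or total RNA replicate 2 (adjusted p up to 0.0662). mrpl-22 was the 1 member on the other side (-1.03, SE 0.39, adjusted p = 0.0338), and its call was lost in 6 of 12 fits that left out a library (adjusted p up to 0.0817).

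**Figure D2:**
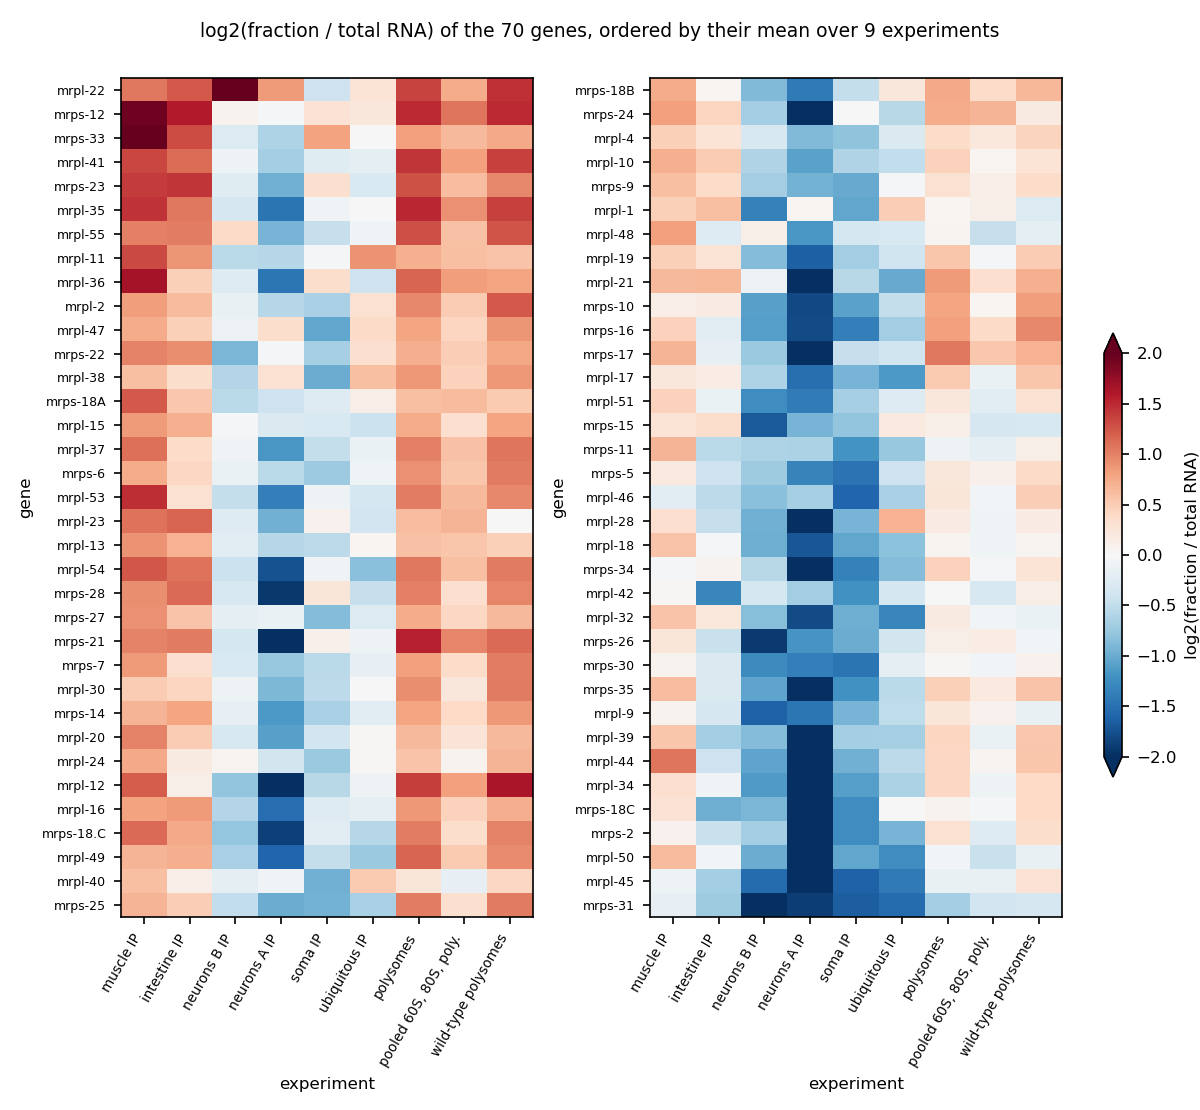
Log2 of fraction over total RNA for each of the 70 genes (rows, ordered by their mean) in the 9 experiments (columns), from limma on the deposited normalization; the colour scale is cut at -2 and 2. Most genes are red in the muscle, intestine and polysome columns and blue in the neuron and soma columns; with libraries of equal sum the median of the intestine column turns to -0.84 and that of the muscle column to -0.70.

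Read across the 9 experiments, no member rose in all. mrps-33 and mrpl-22 each rose in 6 of 9 and fell in none. The share of all genes called in so many experiments is not given here, so this count and those below have no background. Over the 6 fits that left out a library, mrps-33 lost its call in 5 in intestine and in 4 in soma. mrpl-22 lost its intestine call in 4 of 6. mrps-33 rose in muscle, intestine, soma and the 3 gradient fractions, with log2 ratios from 0.66 (pooled fractions) to 2.12 (muscle), and stood at 0.00 in the ubiquitous IP, -0.28 in neurons B and -0.62 in neurons A. Its neighbours on the same strand, F21D5.6 at 113 bases before and F21D5.5 at 75 bases after, had log2 ratios of -0.44 and -0.03 in muscle and of -1.76 and -1.07 in the soma IP. mrps-12 rose in 5 and fell in none, and its lowest ratio was -0.02 in neurons A. mrps-31 fell in 4 (neurons B, soma, ubiquitous and wild-type polysomes) and was below 0 in all 9, although its wild-type call was lost in 5 of 6 fits that left out a library. Its ratios ran from -0.16 in muscle to -2.02 in neurons B. mrpl-32, mrpl-50 and mrpl-18 also fell in 4 and rose in none.

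**Figure D3:**
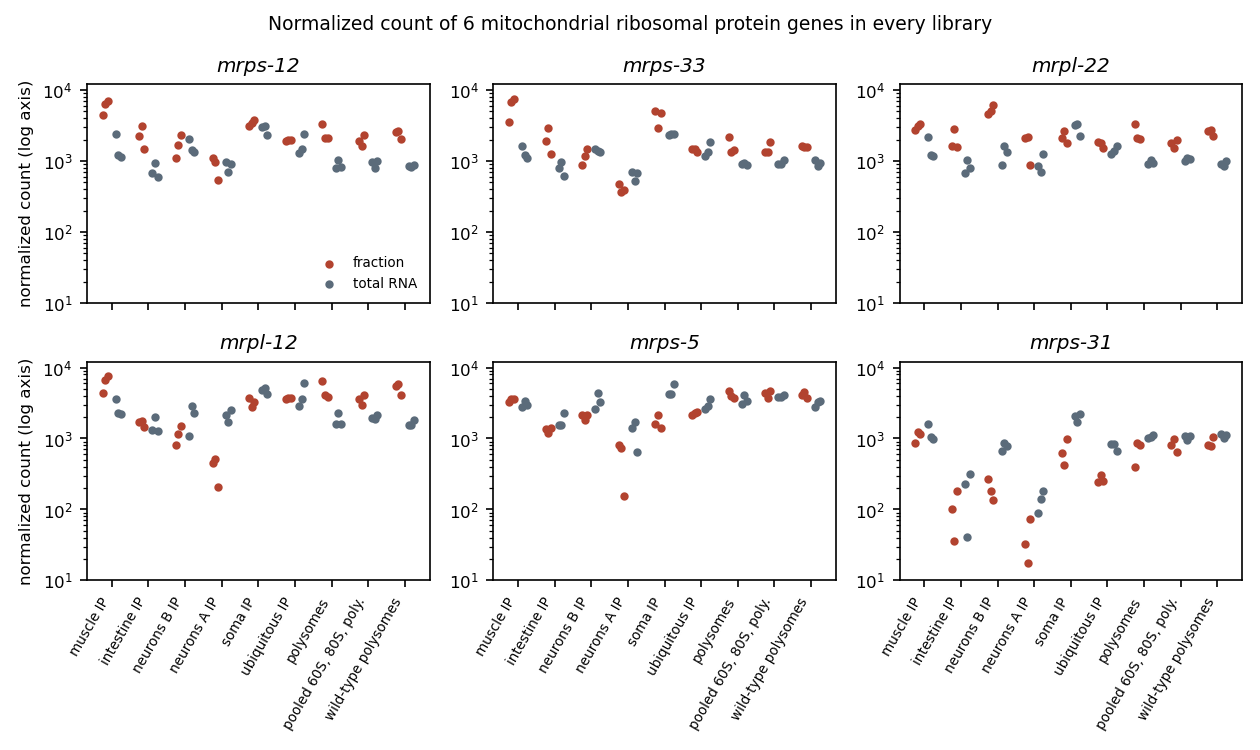
Normalized counts of 6 genes in each library on a log axis, by experiment; points are single libraries, red for the ribosome-bound fraction and grey for total RNA, 3 each. mrps-33 and mrps-12 stand above total RNA in muscle, intestine and the gradient fractions, mrpl-22 stands above total RNA in the neurons B IP, and mrps-31 stands below it in the neurons B, soma and ubiquitous IPs; with libraries of equal sum mrps-12 passed the test in neither muscle nor intestine, and mrps-33 in muscle but not in intestine.

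The range of a member's 9 ratios was widest for mrps-17 (5.11 log2 units), mrps-21 (5.10), mrpl-44 (4.84), mrpl-21 (4.35) and mrpl-12 (4.17). The low end of each lay in neurons A, where all but mrpl-12 stood at 0 in IP replicate 3. The range was narrowest for mrpl-15 (1.27), mrpl-4 (1.36), mrpl-42 (1.44), mrpl-13 (1.47) and mrpl-24 (1.51). mrpl-15 ran from -0.42 in the ubiquitous IP to 0.85 in muscle.

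The genes that share the mitochondrial pathway did not all move with the mitochondrial ribosome. Of 57 nuclear-encoded OXPHOS subunits, the complexes into which mitochondrially made proteins are built, all 57 rose in polysomes of the ubiquitous strain (median log2 1.19) and in wild-type polysomes (1.34), 53 rose and 2 fell in muscle (2.83) and 34 rose and 3 fell in the soma IP (0.73). In the neurons B IP 24 rose and 3 fell (median 0.63). With equal sums 12 rose and 7 fell, where 33.4% of all genes rose and 39% fell. With centred libraries none rose and 17 fell, where 26.2% and 51.6% of all genes did so. atp-2, the beta subunit of ATP synthase, had a mean of 352600 normalized counts in the muscle IP, against 75970 in total RNA (log2 ratio 2.20, SE 0.21, adjusted p = 7.76e-06). Relative to total RNA, the members' median lay below the OXPHOS median in every fraction library, by 1.95 to 2.34 log2 units in muscle, 1.31 to 1.66 in soma, 0.82 to 1.37 in neurons B and 0.45 to 0.58 in polysomes of the ubiquitous strain. This distance does not depend on the scaling of a library. In total RNA libraries it stayed between -0.32 and 0.38, and the 2 kinds of library did not overlap except in the ubiquitous experiment, at -0.23 to -0.18 in the IP against -0.24 to 0.13 in total RNA.

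Of 81 cytosolic ribosomal protein genes, which encode the ribosome that was captured, 72 rose and 2 fell in polysomes of the ubiquitous strain (median 1.23) and 73 rose and 2 fell in wild-type polysomes (1.31), while 73 fell and 1 rose in the soma IP (-1.28). Relative to total RNA, the members' median minus that of the cytosolic ribosomal proteins was 0.10 to 1.25 in the soma IP, against -0.15 to 0.10 in its total RNA, so IP replicate 1 overlapped total RNA. In polysomes of the ubiquitous strain it was -0.86 to -0.39, against -0.17 to 0.11 in total RNA, without overlap. The list of 19 other genes of mitochondrial translation held elongation, release and recycling factors, tRNA synthetases and dap-3. dap-3 stands there because the members were chosen by the symbols mrpl- and mrps-. Of the 19, 16 fell in the soma IP (median -1.24), and 5 rose and 4 fell in polysomes of the ubiquitous strain (0.01). The polysome split with libraries of equal sum was 1 risen and 7 fallen (median -0.25), where 20.3% of all genes rose and 33.6% fell. With centred ones it was 1 and 4, against 25.8% and 32.3% of all genes. tufm-1, the mitochondrial elongation factor Tu, averaged 5483 in the soma IP, against 13820 in total RNA (log2 ratio -1.35, SE 0.26, adjusted p = 0.00198). Of 16 genes of mitochondrial protein import, 10 rose and 1 fell in muscle (median 1.07), and 9 rose in polysomes of the ubiquitous strain (0.89). Equal sums turned the muscle median to -0.32 with 3 risen and 7 fallen, where 11.5% of all genes rose and 71.2% fell. ddp-1, a small import chaperone of the intermembrane space, averaged 23390 in the muscle IP, against 3795 in total RNA (log2 ratio 2.57, SE 0.30, adjusted p = 3.78e-05).

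The messenger RNAs that the mitochondrial ribosome itself translates were lower on cytosolic ribosomes. All 12 protein-coding genes of mitochondrial DNA fell in the neurons B, soma and ubiquitous IPs and in both kinds of polysomes. Their median log2 ratio was -5.93 in the ubiquitous IP, -2.74 in the soma IP, -2.70 in neurons B, -2.55 in polysomes of the ubiquitous strain and -2.51 in wild-type polysomes. In the muscle IP none of the 12 passed with the deposited scaling (median -0.55). With equal sums 11 fell (-1.94), where 71.2% of all genes fell, and with centred libraries 4, where 44.45% did. In the pooled fractions 10 fell (-1.01), in the intestine IP 4 (-1.14) and in the neurons A IP 7 (-3.05).

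**Figure D4:**
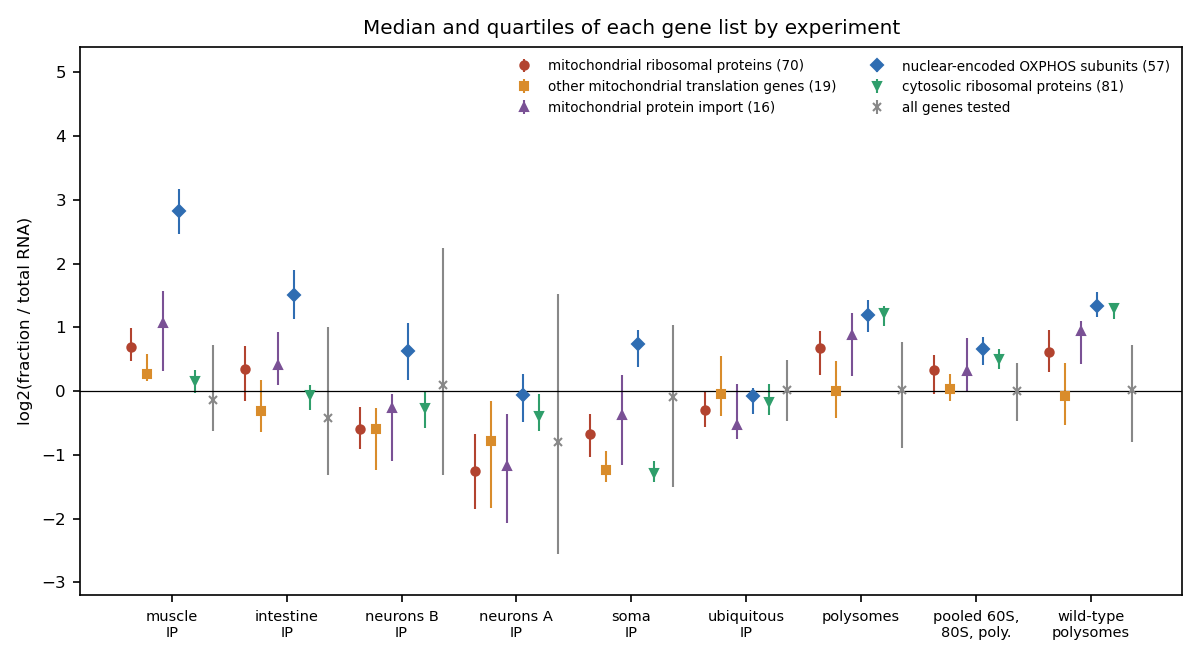
Median (symbol) and quartiles (bars) over genes of log2 fraction over total RNA for 5 gene lists and for all genes tested, by experiment, with the number of genes per list in the legend. The mitochondrial ribosomal proteins lie below the OXPHOS subunits in every experiment and above all genes in the muscle, intestine and gradient experiments; with libraries of equal sum their own median falls below 0 in muscle (-0.70) and intestine (-0.84).

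Shorter members had higher ratios in most experiments. Across the 70 genes, Spearman's rho of the log2 ratio with coding length was -0.54 in the soma IP, -0.52 in polysomes of the ubiquitous strain, -0.43 in muscle, -0.42 in the pooled fractions, -0.38 in intestine, -0.37 in wild-type polysomes and -0.32 in neurons B. It was 0.13 in the ubiquitous IP and 0.10 in neurons A. These are descriptions over genes measured in the same libraries, and genes are not independent replicates. The 24 shortest members, of up to 549 bases, had a median log2 ratio of 1.02 in polysomes of the ubiquitous strain, and the 23 longest, of 828 bases or more, had 0.37. In the soma IP these medians were -0.23 and -0.93. Among all genes within the members' range of lengths rho was -0.33 in polysomes of the ubiquitous strain, -0.18 in the soma IP and -0.03 in muscle. mrps-33 (378 bases), mrps-12 (471) and mrpl-41 (540) are short members, whereas mrps-5 (1308) and mrps-31 (1149) are long ones.

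**Figure D5:**
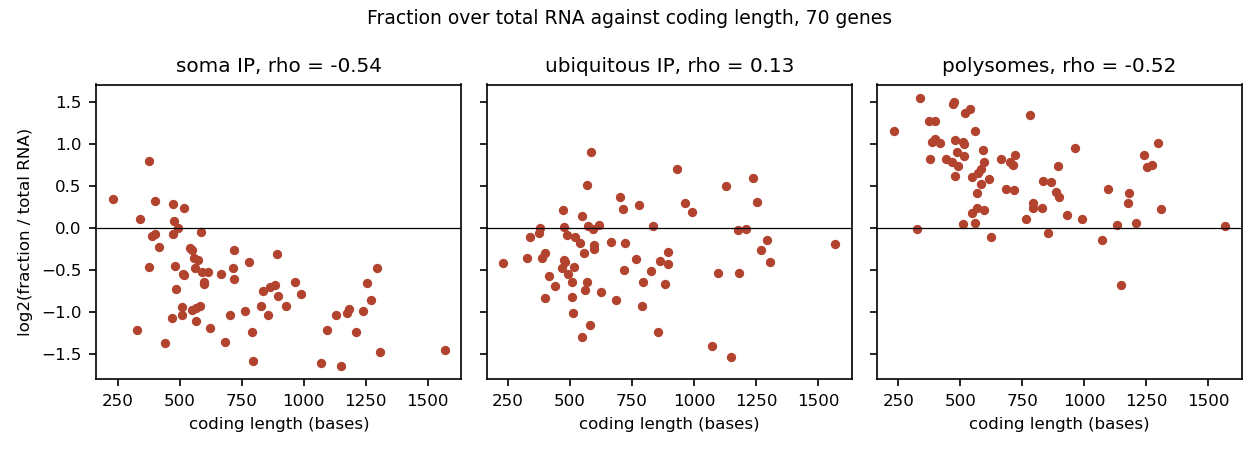
Log2 of fraction over total RNA of the 70 genes against coding length in bases for the soma IP, the ubiquitous IP and polysomes of the ubiquitous strain; each point is 1 gene and the panel titles give Spearman's rho. The ratio is lower in longer genes in the soma IP (-0.54) and in polysomes (-0.52), and no such slope is seen in the ubiquitous IP (0.13).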

How the data were processed

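RNA sequencing of 54 libraries (9 experiments, 3 fraction and 3 total RNA libraries each) was analysed. The tools named are R 4.0.4, DESeq2 1.30.1 and kallisto 0.46.1, with build ce11, per the submitters' processing notes, which give no roles here. What the authors deposited are normalized counts (a signal, not whole numbers), set separately in each table. The authors' deposited tables also hold a log2 fold change with its error, a Wald score, p-values and -log10 of the adjusted p.

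Symbols and positions came from Ensembl release 115 of WBcel235 (19405 of 20728 identifiers had a symbol), and the mitochondrially encoded list is its 12 protein-coding genes on mitochondrial DNA. Fraction and total RNA of an experiment were set against each other in R 4.3.3 with limma 3.58.1 (trend), on log2(normalized count + 1), which understates changes of low genes. Genes averaging 10 or more entered, and calls were two-sided with Benjamini-Hochberg adjusted p under 0.05 over all genes tested. Differences between experiments were interaction terms over 12 libraries, within tables normalized separately. The fits were tested on simulated data. Python 3.11.15, numpy 2.4.6, pandas 2.3.3, scipy 1.17.1 and matplotlib 3.10.9 served for tables and plots.

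Per comparison, the up to 5 members with the largest and smallest called ratios and separated libraries were named, with mrps-5, mrps-12, mrpl-12 and mrpl-41, the 5 widest and narrowest ranges over the 9 experiments, members called one way in at least 6 of 9, and the 2 most abundant genes of each other list, of which the text gives some. mrps-31, mrpl-32, mrpl-50 and mrpl-18 as members fallen in 4 experiments, mrpl-46, mrpl-36, mrpl-11 and mrps-31 by total level, mrps-21 in the intestine, mrpl-22 in neurons A, and neighbouring genes were named after their values were seen. The members and lists were chosen with earlier results of these data known.

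Replicate numbers of a fraction and its total RNA were taken to pair them where the correlation of their deviations from the group means exceeded 0.1 in all 3 pairs, which held in intestine (lowest 0.304), neurons A (0.313) and ubiquitous (0.187). Each library correlated best with its own number only in intestine, soma and ubiquitous, and so not in neurons A. The soma pairs missed the rule (lowest 0.081). Alternatives were pseudocounts of 0.5 and 5, no filter, equal-sum and median-centred libraries, the replicate block, leaving out each library, and the authors' deposited test. For the intestine strain the sample labels were used where the series description differs.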

Additional observations from a re-analysis of the deposited data

Results flagged for a closer look

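Differences between experiments were singled out by limma's interaction test. Between the muscle and the intestine IP 3 members differed, the most by mrpl-44 (log2 difference 1.50). These were 4.29% of members, all higher in muscle, while 11.5% of all genes were higher and 12.8% lower. Between the muscle and the neurons B IP 55 members differed, the most by mrps-33 (log2 difference 2.40). In muscle 77.1% of members were higher and 1.43% lower, against 32.4% and 23.1% of all genes, and with equal sums 8 members differed. Between the soma and the ubiquitous IP 16 members differed, the most by mrpl-28 (log2 difference -1.63). These were 22.9% of members, all lower in soma, while 29.1% of all genes were lower and 20.2% higher. Between the ubiquitous IP and the polysomes of the same strain 49 members differed, the most by mrpl-49 (log2 difference -1.91). These were 70% of members, all lower in the IP, while 22.5% of all genes were lower and 22.5% higher. Groups held 3 libraries, too few to look for single libraries far from the others.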

How the results depend on the processing

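Pseudocounts of 0.5 and 5 and no filter on low values left every count of called members within 1.5 times. With libraries of equal sum the called members reversed in the intestine (30, all fallen) and muscle IP (48, of which 47 fallen), and numbered 8 in neurons A, 54 in neurons B, 15 in the ubiquitous IP, 1 for muscle minus intestine, 8 for muscle minus neurons B and 29 for the ubiquitous IP minus polysomes. Centred on the library median they reversed in the intestine (3, all fallen) and numbered 15 in muscle, 11 in neurons A and 70 in neurons B. The cause was not tested. Equal sums moved the median of all genes by -1.15 in intestine and -1.37 in muscle. The members' median turned to -0.84 (equal sums) and -0.051 (centred) in intestine and to -0.70 (equal sums) in muscle, and of named members mrpl-41 (-0.066) and mrps-28 (-0.054) turned in intestine, mrpl-12 (-0.19) and mrpl-41 (-0.060) in muscle and mrps-5 (-0.087) between muscle and neurons B. With the replicate block, where numbers were taken to pair the libraries, 22 members were called in the intestine and 23 in neurons A, and it moved no other count of called members by over 1.5 times. The authors' deposited test called 23 in the intestine and 28 in neurons A. For the block and the deposited test the share of all genes called is not given here. Leaving out 1 library at a time gave 0 to 9 called members in intestine, 16 to 55 in muscle, 0 to 18 in neurons A, 20 to 43 in neurons B, 20 to 32 in soma, 17 to 40 in the ubiquitous IP, 31 to 46 in polysomes, 15 to 35 in the pooled fractions and 45 to 61 in wild-type polysomes. For the differences it gave 2 to 7 (muscle minus intestine), 50 to 64 (muscle minus neurons B), 10 to 22 (soma minus ubiquitous), 43 to 50 (ubiquitous IP minus polysomes), 0 to 1 (polysomes minus pooled) and 0 to 0 (polysomes minus wild type). Read depth is not given in the tables, and 3 libraries a group limit the precision.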
